A study of Mus musculus with 24 samples.

Results

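Gm765, B230217O12Rik and Cep83os are 3 of the 15232 genes in the deposited table, on chromosomes 6, 19 and 10. They were selected on measured values, because their FPKM levels differed strongly between the mouse libraries labelled Thbs1/2 KO and those labelled wild type (WT) although none of them lies on chromosome 2 or 17, which carry Thbs1 and Thbs2. The differences from the libraries labelled WT therefore chose these genes and are given as a description, with no test. Of 10965 tested genes off chromosomes 2 and 17, 83 (0.757%) passed the test between the untrained arms. By size of the fitted log2 difference the 3 genes were the 1st, 3rd and 5th of these. Wwox on chromosome 8 and Clec3b on chromosome 9 came between them, and Cryab on chromosome 9 followed. This order reflects the selection, and nothing is read from it.

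Each library is poly(A) RNA from 1 mouse, taken from the anterior cingulate cortex (a region of the frontal cortex) as a whole. The labels form 3 arms of 8 mice, each with 4 females and 4 males. These are untrained mice with the label WT, untrained mice with the label Thbs1/2 KO, and Thbs1/2 KO mice trained in an operant chamber. Trained mice were deprived of food, so training and deprivation cannot be told apart, and trained WT mice were not analysed here. The strain, the age and the design of the Thbs1 and Thbs2 alleles are not given in the sources used here. Nothing in the labels says that the mice of a group came from separate litters.

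Thbs1 and Thbs2 themselves separated by the genotype label, but in the direction opposite to a loss of RNA. They encode thrombospondins, matrix proteins that astrocytes secrete. In the arms labelled WT, untrained KO and trained KO, mean Thbs1 levels were 0.512 ± 0.147, 3.68 ± 0.840 and 4.63 ± 0.690 FPKM (SD, n = 8 each), and mean Thbs2 levels were 2.02 ± 0.294, 3.51 ± 0.378 and 3.29 ± 0.227 FPKM (SD, n = 8 each). For both genes, all 16 libraries labelled KO were above all 8 labelled WT. Of all tested genes, 0.223% had every untrained library labelled KO above every library labelled WT. The share for the trained libraries was not counted. Whether genotype labels were exchanged or the alleles still give RNA cannot be told apart here. Why the levels of both genes were above those labelled WT was not tested. FPKM counts fragments by gene length and library size, so that levels of genes of different length can be compared. Every direction below is drawn between libraries by their labels. The 24 libraries held 12343773 to 27233267 recovered reads. Male untrained library 3 labelled KO was the deepest and stood apart in its markers. Its 4 septal markers summed to 78.7 FPKM, against at most 7.35 FPKM in the libraries labelled WT and 10.2 FPKM in the trained ones. Its 6 striatal markers summed to 334.6 FPKM, against at most 222.7 FPKM in the libraries labelled WT. Its 6 cortical excitatory markers summed to 227.1 FPKM, against at least 584.1 FPKM in the libraries labelled WT. Other libraries also varied in makeup. The highest sum of 4 choroid plexus markers in a trained library was 84.5 FPKM, against an arm median of 4.93 FPKM and at most 11.1 FPKM under the label WT. For Gm765, Ntn4 and the counts called between the untrained arms, results are also given without male untrained library 3. For the partner and flanking genes they are not. In the libraries labelled WT, the cortical markers summed to a median of 636.6 FPKM, above the 80.7 FPKM of the striatal ones.

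Long non-coding RNAs are transcripts with no annotated protein product. Many start beside a protein-coding gene and run away from it on the opposite strand, so that a pair of genes shares a start region, usually one rich in CpG dinucleotides. B230217O12Rik and Cep83os are of this class, and Gm765 is annotated as protein-coding. Promoters rich in CpG are common at genes active in most tissues, and promoters poor in CpG at genes with restricted expression.

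All 3 genes lie on the minus strand of GRCm38, the assembly also called mm10. In RefSeq, Gm765 spans chr6:98238014-98342754, between Mitf and Foxp1, and has no head-to-head partner. B230217O12Rik spans chr19:57323197-57360899, and its start lies 23 bases from that of Fam160b1 on the plus strand. Cep83os spans chr10:94673493-94688613, and its start lies 10 bases from that of Cep83 on the plus strand. GENCODE M21 calls Cep83os a bidirectional promoter lncRNA and B230217O12Rik a lincRNA. The sequences below are the start regions, shown because a pair of genes shares each of the first 2 and Gm765 has no partner, with each CpG in capitals. Both head-to-head regions are short and dense in CpG, and the bases before Gm765 are not. Sequence is from RefSeq GRCm38.p6, 5′ to 3′. The Cep83os line is on the minus strand, at chr10:94688564-94688623, with 10 bases between the pair followed by 50 bases of exon 1. The Fam160b1 line is on the plus strand, at chr19:57360863-57360922, where the first 37 bases lie opposite exon 1 of B230217O12Rik and the other 23 separate the pair. The Gm765 line is the 250 bases before its start on the minus strand, at chr6:98342755-98343004.
Cep83os start: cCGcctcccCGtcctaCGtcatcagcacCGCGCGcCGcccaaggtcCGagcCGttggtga
Fam160b1 upstream: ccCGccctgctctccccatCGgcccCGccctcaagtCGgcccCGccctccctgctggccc
Gm765 upstream: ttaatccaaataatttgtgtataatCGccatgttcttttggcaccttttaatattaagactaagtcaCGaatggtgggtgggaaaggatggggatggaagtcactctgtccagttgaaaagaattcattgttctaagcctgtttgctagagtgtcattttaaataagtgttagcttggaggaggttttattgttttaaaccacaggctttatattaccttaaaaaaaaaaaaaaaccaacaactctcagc

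Promoter windows of 300 bases (250 before and 50 after the start) were held for 2 of the 3 genes. The Cep83os window had 46 CpGs, and 1.65% of 32851 promoter windows had as many. That of Cep83 overlaps it and also had 46. The Gm765 window had 3 CpGs, against a median of 7 over all windows, and 76.7% of windows had as many. The window of Fam160b1 had 36 CpGs. The motif counted was CG, which reads the same on both strands. These counts describe the letters only.

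The transcripts themselves can be told from their partners by exons that lie inside the gene body, away from the shared start. The second exons, read from the GENCODE M21 transcripts on the minus strand, are shown because they carry no base of a partner gene's start region. That of B230217O12Rik is at chr19:57324596-57324797, and that of Cep83os is at chr10:94678331-94678447.
B230217O12Rik exon 2: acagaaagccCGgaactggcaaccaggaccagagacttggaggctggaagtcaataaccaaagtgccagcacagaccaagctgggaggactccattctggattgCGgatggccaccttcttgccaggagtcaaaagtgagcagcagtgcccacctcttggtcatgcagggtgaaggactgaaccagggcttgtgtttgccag
Cep83os exon 2: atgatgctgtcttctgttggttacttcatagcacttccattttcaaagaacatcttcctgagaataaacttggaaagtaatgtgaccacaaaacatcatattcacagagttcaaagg

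In these exons, 2 CpGs occur in 202 bases of B230217O12Rik and 0 in 117 bases of Cep83os. The deposited values fit counted lengths of 826 bases for Gm765, 1954 for B230217O12Rik and 4135 for Cep83os. The labels name a stranded kit, but the strand setting of the counting is not given in the sources used here. Annotated genes on the plus strand share 222 of 826 exon bases with Gm765 (the antisense gene Gm32592) and 344 of 4098 with Cep83os (Gm49167). Of the 1830 exon bases of B230217O12Rik, 461 are shared with AC131756.1 and 96 with Fam160b1. The 96 bases are from GENCODE M21, where B230217O12Rik and Fam160b1 overlap, while in RefSeq 23 bases separate their starts. If the counting ignored strand, reads from these genes cannot be told apart over those bases.

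Cep83os was the most abundant of the 3 genes. It is named as the opposite-strand transcript of Cep83, and no function is attached to it here. The females labelled WT were at 12.6, 10.3, 13.0 and 10.7 FPKM and the males at 10.1, 9.96, 11.4 and 9.92 FPKM. The untrained females labelled KO were at 6.66, 4.82, 5.62 and 5.88 FPKM and the males at 4.79, 5.19, 4.76 and 5.68 FPKM. The trained females labelled KO were at 3.45, 3.69, 3.60 and 3.50 FPKM and the males at 3.64, 4.36, 4.00 and 3.38 FPKM. The 3 arms did not overlap in any pair, with the libraries labelled WT highest and the trained libraries lowest. In untrained libraries labelled KO the mean was 49.3% of the WT mean, 5.42 ± 0.666 against 11.0 ± 1.21 FPKM (SD, n = 8 each). In trained libraries it was 33.6%, at 3.70 ± 0.324 FPKM (SD, n = 8). On the log2(FPKM + 1) scale the fitted differences from WT were -0.90 (SE 0.0615) and -1.35 (SE 0.0614). These values rest on 571 to 926 reads per library labelled WT, 239 to 567 per untrained library labelled KO and 233 to 332 per trained library. In bulk tissue, fewer cells of a type and less RNA per cell cannot be told apart.

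B230217O12Rik, the non-coding partner of Fam160b1, showed the same order for the genotype label. The females labelled WT were at 4.25, 4.31, 4.08 and 3.96 FPKM and the males at 5.59, 5.89, 4.67 and 5.15 FPKM. The untrained females labelled KO were at 2.46, 1.53, 1.89 and 2.02 FPKM and the males at 1.61, 1.75, 2.20 and 2.16 FPKM. The trained females labelled KO were at 1.45, 1.17, 1.46 and 1.26 FPKM and the males at 1.62, 2.17, 2.12 and 1.93 FPKM. All 16 libraries labelled KO were below all 8 labelled WT, while the trained and untrained libraries labelled KO overlapped. The arm means were 4.74 ± 0.727, 1.95 ± 0.318 and 1.65 ± 0.384 FPKM (SD, n = 8 each), the last 2 being 41.2% and 34.8% of the first. The fitted differences from WT were -0.96 (SE 0.0763) in untrained and -1.12 (SE 0.0555) in trained libraries. Libraries labelled WT held 108 to 209 reads of it, untrained libraries labelled KO 38 to 124 and trained ones 42 to 80.

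Gm765 was the lowest of the 3 and the most variable relative to its mean. The females labelled WT were at 3.63, 3.90, 2.54 and 2.14 FPKM and the males at 2.48, 1.13, 3.44 and 3.13 FPKM. The untrained females labelled KO were at 0.910, 0.462, 0.663 and 1.47 FPKM and the males at 1.10, 0.690, 0.0841 and 0.923 FPKM. The trained females labelled KO were at 0.724, 0.790, 1.28 and 1.31 FPKM and the males at 0.614, 0.460, 0.878 and 0.436 FPKM. The arms overlapped through 1 library, male 2 labelled WT at 1.13 FPKM, which lay below 1 untrained and 2 trained libraries labelled KO. The arm means were 2.80 ± 0.911, 0.789 ± 0.419 and 0.811 ± 0.334 FPKM (SD, n = 8 each), and the means labelled KO were 28.2% and 29.0% of the WT mean. The fitted differences were -1.08 (SE 0.169) and -1.05 (SE 0.135). With a pseudocount of 0.1 they were -1.84 and -1.67, since the added 1 FPKM shrinks the difference of so low a gene. Counts were small, at 17 to 56 reads in libraries labelled WT, 2 to 21 in untrained and 6 to 20 in trained libraries labelled KO. Counting error alone gives an SD of 0.470 FPKM in the WT arm and 0.251 FPKM in the untrained KO arm. The lowest value, 2 reads, was in the male untrained library 3 with the septal markers, and without it the untrained difference was -0.99.

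**Figure D1:**
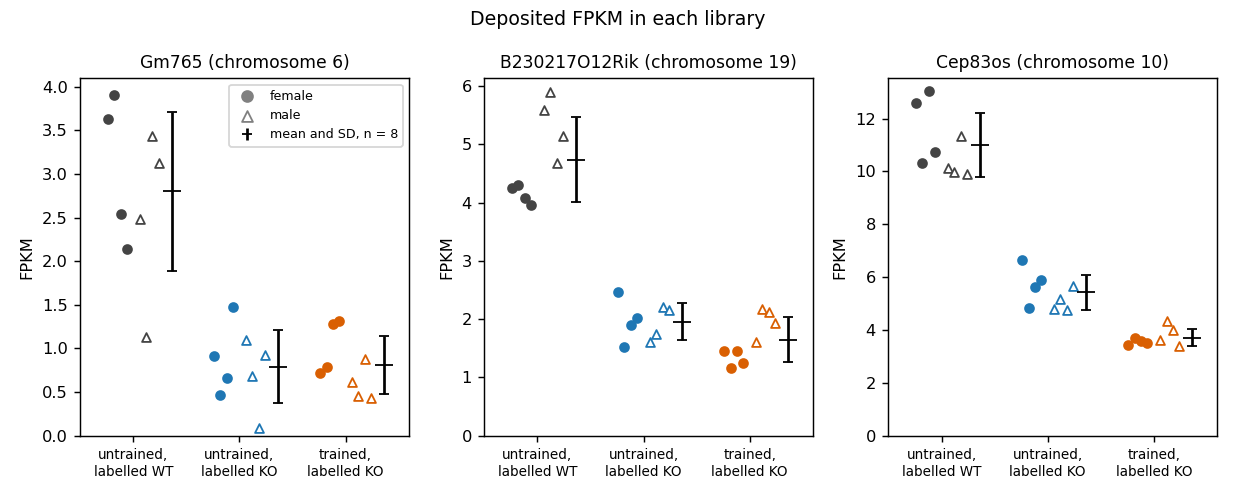
Deposited FPKM (vertical axes, starting at 0) of the 3 genes in each of 24 libraries, by arm as labelled, with females as filled circles, males as open triangles and the mean and SD of 8 libraries as bars. Cep83os separates all 3 arms, B230217O12Rik separates the libraries labelled WT from those labelled KO, and in Gm765 a single male labelled WT, at 1.13 FPKM, falls among the libraries labelled KO.

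Across all tested genes, 0.278% lay with every untrained library labelled KO below every library labelled WT and 1.46% with every trained one below. Cep83os and B230217O12Rik are among these genes in both comparisons, which share the libraries labelled WT, and nothing is read from this, since the genes were selected on these levels. Between the untrained arms, 1.42% of 12572 tested genes passed the test. The share was 0.321% on chromosome 6, 0.694% on chromosome 19 and 1.82% on chromosome 10, against 4.39% on chromosome 2 and 8.62% on chromosome 17. On chromosomes 6, 19 and 10 these were 2 of 624, 3 of 432 and 11 of 604 genes, and the selected genes are counted among them.

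Training was compared within the libraries labelled KO, a contrast that leaves out the libraries labelled WT, although libraries labelled KO, which may include those of both arms, had entered the choice of the genes. The test is therefore not fully independent of that choice. Cep83os fell by 0.45 on the log2(FPKM + 1) scale in trained libraries (SE 0.0650, limma adjusted p = 0.00119), to 68.2% of the untrained mean. All 8 trained libraries were below all 8 untrained ones, the highest trained value being 4.36 FPKM and the lowest untrained 4.76 FPKM. An exact permutation test within sex gave a 2-sided p of 0.000408 over 4900 arrangements, the smallest the design can give. Of all tested genes, 5.67% passed this test and 2.17% passed with a fall, and 0.294% had every trained library below every untrained one. B230217O12Rik differed by -0.16 (SE 0.0830, limma adjusted p = 0.241; 95% interval -0.34 to 0.02). Gm765 differed by 0.03 (SE 0.136, limma adjusted p = 0.904; 95% interval -0.26 to 0.33).

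The numbers given to the animals overlap with training. All 8 trained mice had numbers over 1000, against 2 untrained mice labelled KO and 1 labelled WT, which were all male. Cep83os was at 4.79 and 5.19 FPKM in the 2 untrained males labelled KO with such numbers and at 3.64, 4.36, 4.00 and 3.38 FPKM in the 4 trained males, with no overlap, as in 10.1% of all tested genes. With the number range as a covariate the difference was -0.35 (limma adjusted p = 0.318), and among males with numbers over 1000 alone it was -0.31 (limma adjusted p = 0.424). In limma, 0 tested genes passed under either fit, where 1306 and 1320 genes had an unadjusted p under 0.05. Among females, training and number range cannot be told apart. For the genotype label, the untrained libraries with numbers under 1000 gave Cep83os 11.1 ± 1.25 FPKM (SD, n = 7) under the label WT and 5.57 ± 0.709 FPKM (SD, n = 6) under the label KO. The 1 untrained male labelled WT with a number over 1000 was at 10.1 FPKM.

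**Figure D2:**
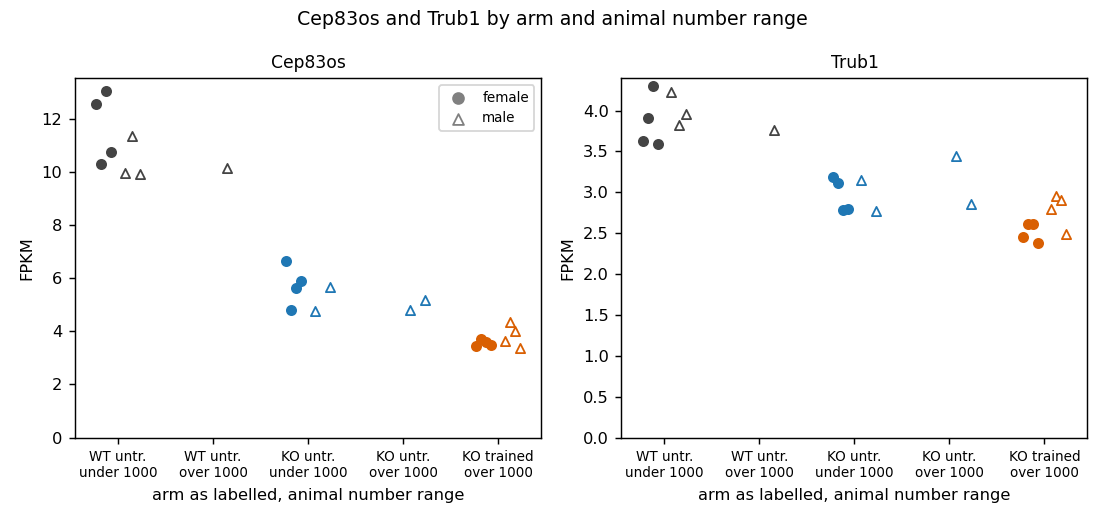
FPKM of Cep83os and Trub1 (vertical axes, starting at 0) in each library, by arm as labelled and by whether the animal number is under or over 1000, with females as filled circles and males as open triangles. In the ranges over 1000, the 2 untrained males labelled KO (4.79 and 5.19 FPKM of Cep83os) lie above all 8 trained libraries, of which the highest is at 4.36 FPKM.

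Sex was balanced in every arm and did not enter the choice of genes. B230217O12Rik was higher in males by 0.21 (SE 0.0606, limma adjusted p = 0.0141), where 28.6% of tested genes passed and 14.8% passed with the males higher. In the arm labelled WT, females were at 4.15 ± 0.159 FPKM and males at 5.33 ± 0.532 FPKM (SD, n = 4 each), and all 4 males were above all 4 females, as in 11.7% of all tested genes. In the untrained arm labelled KO the means were 1.97 ± 0.382 and 1.93 ± 0.297 FPKM (SD, n = 4 each), with overlap, and in the trained arm 1.33 ± 0.145 and 1.96 ± 0.250 FPKM (SD, n = 4 each), without overlap, as in 1.98% of all tested genes. A permutation test within arms with 100000 resamples gave a 2-sided p of 0.00401. After correction for GC content and length, the difference was 0.16 and no longer passed (limma adjusted p = 0.114), and 4.24% of tested genes passed. Gm765 differed by -0.24 (SE 0.123, limma adjusted p = 0.147) and Cep83os by -0.07 (SE 0.0520, limma adjusted p = 0.323) between males and females.

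Whether the difference between the untrained arms was alike in both sexes was tested as an interaction. For B230217O12Rik the coefficient was -0.31 (SE 0.137), the difference from WT being further below 0 in males, with an unadjusted p of 0.0373 and a limma adjusted p of 0.980. Gm765 (0.06, SE 0.349) and Cep83os (0.02, SE 0.127) had limma adjusted p values of 0.990 and 0.992. In limma, 0 of 12572 genes passed, against 394 with an unadjusted p under 0.05. With limma-voom on recovered reads 0 passed, against 441.

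The neighbours in the table, which follows genomic order, were examined to ask whether a local segment shifted with each gene. Within 10 rows on each side there were 60 neighbours, of which 52 passed the filter of a mean of 1 FPKM and were tested. The 10 rows reached up to 5168 kb from Gm765 (Chl1), 1804 kb from B230217O12Rik (Vax1) and 2791 kb from Cep83os (Dcn). Between the untrained arms, 3 of 52 neighbours passed in limma, or 5.77%. Of all tested genes 1.42% passed, and of the 10965 off chromosomes 2 and 17, where all neighbours lie, 0.757% did. The median difference of the neighbours was -0.02 against -0.0014 for all genes. None of the 3 called neighbours was among the 18 tested around Gm765. An unadjusted p under 0.05 was found for 4 of these 18, 2 of 14 around B230217O12Rik and 8 of 20 around Cep83os. Together these were 14 of 52, against 1600 of 12572 tested genes. Without male untrained library 3 labelled KO, 5 of the 52 passed, against 2.7% of all tested genes. The count fell to 1 without the sex covariate, at a mean of at least 5 FPKM and within 5 rows.

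Of the neighbours of B230217O12Rik, 1 of 14 passed between the untrained arms. This was Trub1, which encodes a pseudouridine synthase that modifies RNA and starts 92.0 kb away on the plus strand. Females labelled WT were at 3.63, 3.91, 4.30 and 3.60 FPKM of Trub1 and males at 3.77, 4.22, 3.82 and 3.95 FPKM. Untrained females labelled KO were at 3.18, 3.11, 2.79 and 2.80 FPKM and males at 3.44, 2.85, 3.15 and 2.77 FPKM. All 16 libraries labelled KO were below all 8 labelled WT, as trained ones were at 2.38 to 2.95 FPKM. Trub1 fell by 0.29 between the untrained arms (SE 0.0488, limma adjusted p = 0.00352), to 77.2% of the WT mean, and its trained level was lower than the WT level by 0.43 (SE 0.0479, limma adjusted p = 1.49e-05). Its training difference was -0.14 (SE 0.0503, limma adjusted p = 0.114). Of all tested genes 0.278% had every untrained library labelled KO below every library labelled WT, and 1.46% had every trained one below. The share with all 16 below was not counted.

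Fam160b1, the head-to-head partner of B230217O12Rik, lies between it and Trub1. It was at 8.73 ± 0.248 FPKM in the arm labelled WT, 8.42 ± 0.591 FPKM in the untrained and 8.16 ± 0.335 FPKM in the trained arm labelled KO (SD, n = 8 each). The differences from WT were -0.05 (SE 0.0421, limma adjusted p = 0.684; 95% interval -0.14 to 0.04) and -0.09 (SE 0.0372, limma adjusted p = 0.0903; 95% interval -0.17 to -0.0080). The ratio of B230217O12Rik to Fam160b1, both in FPKM, was 0.446 to 0.674 in libraries labelled WT, 0.177 to 0.309 in untrained and 0.148 to 0.277 in trained libraries labelled KO. The highest untrained ratio labelled KO was that of male untrained library 3. Nothing is read from the separation by label, since B230217O12Rik was selected on its difference from WT. On the other side, Ablim1, an actin-binding LIM protein gene, differed by -0.12 (SE 0.0919, limma adjusted p = 0.639) between the untrained arms. Male untrained library 3 held the lowest Fam160b1 and Ablim1 values of the untrained arm labelled KO, 7.13 and 13.7 FPKM. Neither of the 2 rows that flank B230217O12Rik passed between the untrained arms, and the next row beyond Fam160b1 did.

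Of the 20 neighbours of Cep83os, 2 passed between the untrained arms, and both were higher, where 0.605% of all tested genes passed with a rise. Ntn4, which encodes the secreted guidance protein netrin 4 and lies 928 kb away, was at 1.72 to 2.73 FPKM in libraries labelled WT and at 2.81 to 6.59 FPKM in untrained libraries labelled KO, without overlap, as 0.223% of all tested genes were. It rose by 0.50 (SE 0.105, limma adjusted p = 0.0235). The highest value was in male untrained library 3, and without that library the rise was 0.40 (limma adjusted p = 0.0546). Lta4h, for leukotriene A4 hydrolase, rose by 0.16 (SE 0.0298, limma adjusted p = 0.00945), from 18.3 ± 1.26 to 20.5 ± 1.06 FPKM (SD, n = 8 each). It lies 1189 kb away. Its call was lost without the sex covariate (limma adjusted p = 0.207) and with the replicate block (limma adjusted p = 0.0588), and that of Ntn4 without the sex covariate (limma adjusted p = 0.0567).

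Cep83, the head-to-head partner of Cep83os, encodes a protein of the distal appendages that anchor the mother centriole to the membrane at the base of a cilium. It was at 11.8 ± 1.63 FPKM in the arm labelled WT, 11.1 ± 2.09 FPKM in the untrained and 12.0 ± 0.517 FPKM in the trained arm labelled KO (SD, n = 8 each). The lowest value of the untrained arm labelled KO, 7.06 FPKM, was in male untrained library 3. Neither difference from WT passed, at -0.09 (SE 0.0787, limma adjusted p = 0.684; 95% interval -0.26 to 0.08) and 0.04 (SE 0.0551, limma adjusted p = 0.615; 95% interval -0.08 to 0.16). The training difference was 0.13 (SE 0.0802, limma adjusted p = 0.329). The ratio of Cep83os to Cep83, both in FPKM, was 0.950 ± 0.147 in the arm labelled WT, 0.506 ± 0.108 in the untrained and 0.309 ± 0.0350 in the trained arm labelled KO (SD, n = 8 each). Its lowest value labelled WT, 0.772, was above its highest labelled KO, 0.675, which was that of male untrained library 3. Nothing is read from this separation, since Cep83os was selected on its difference from WT. Cep83 was lower in males by the fitted -0.23 (SE 0.0606, limma adjusted p = 0.00641), and after correction for GC content and length it no longer passed (-0.11, limma adjusted p = 0.282). On the far side, Tmcc3 differed by -0.01 (SE 0.0614, limma adjusted p = 0.980) between the untrained arms.

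**Figure D3:**
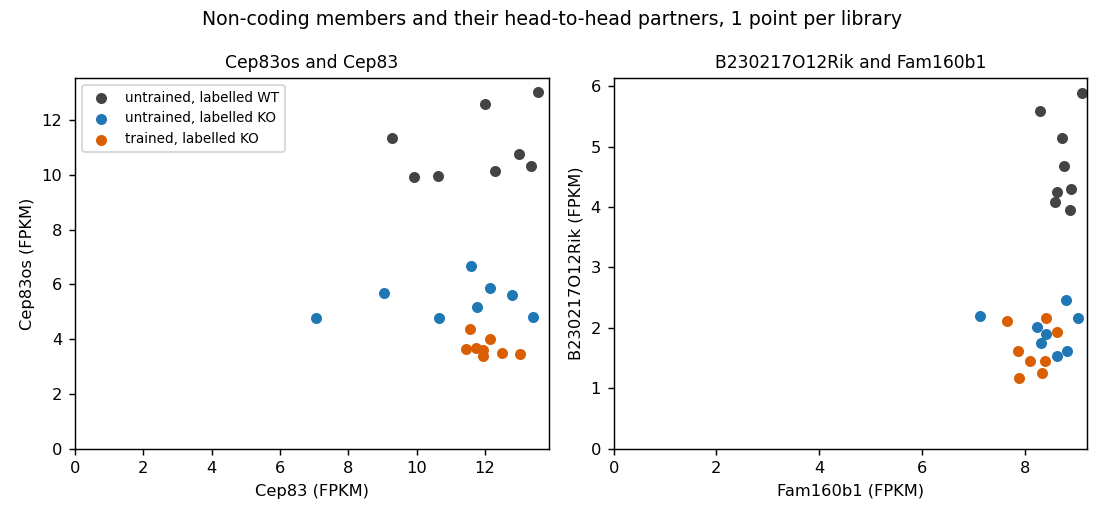
FPKM of each non-coding gene (vertical) against that of its head-to-head partner (horizontal), both axes from 0, with 1 point per library coloured by arm as labelled. Cep83 and Fam160b1 overlap between the arms along the horizontal axis, while Cep83os forms 3 bands, at 9.92 FPKM and above, 4.76 to 6.66 FPKM and 3.38 to 4.36 FPKM.

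Gm765 lies between Mitf and Foxp1, which encode transcription factors. Mitf was at 1.56 ± 0.278, 1.61 ± 0.361 and 1.78 ± 0.271 FPKM (SD, n = 8 each) in the order of WT, untrained KO and trained KO labels, and passed in no comparison of arms. Foxp1 was at 16.4 ± 1.88, 14.3 ± 2.41 and 13.7 ± 1.30 FPKM (SD, n = 8 each). Between the untrained arms it differed by -0.19 (SE 0.0833, limma adjusted p = 0.348), and between trained libraries and WT it fell by 0.24 (SE 0.0648, limma adjusted p = 0.0122).

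Against the libraries labelled WT, the trained libraries differ by genotype label and training together. In this comparison 13 of 52 neighbours passed in limma, or 25%. This is near the 24.5% of all tested genes and the 23.6% of those off chromosomes 2 and 17. Of the 13 neighbours, 10 were lower and 3 higher, against 11.5% and 12.9% of all tested genes. Around Gm765, Foxp1, Kbtbd8 (-0.27, SE 0.0608, limma adjusted p = 0.00391) and Eogt, which encodes a sugar transferase of secreted proteins, were lower. Eogt differed by -0.20 (SE 0.0557, limma adjusted p = 0.0149). Around B230217O12Rik, Trub1, Gfra1 (-0.31), Shtn1 (-0.23) and Hspa12a (-0.14) were lower and Adrb1 (0.25), the beta-1 adrenergic receptor, was higher. Gfra1 encodes a receptor for glial-derived growth factors. Around Cep83os, Nr2c1 (-0.29) and Fgd6 (-0.23) were lower and Ntn4 (0.28) and Metap2 (0.13) were higher. Nr2c1, an orphan nuclear receptor, had all 8 trained libraries below all 8 labelled WT, at means of 2.31 and 3.07 FPKM, where 1.46% of all tested genes separated in this way. The largest neighbour difference in this comparison was -0.43, for Trub1. The 3 genes themselves, at -1.05, -1.12 and -1.35, were selected for large differences. Smaller differences in the neighbours therefore say nothing about a segment.

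For training within the libraries labelled KO, 2 of 52 neighbours passed in limma, or 3.85%. Of all tested genes 5.67% passed, and of those off chromosomes 2 and 17, 5.59% did. Mrpl42, a subunit of the mitochondrial ribosome 792 kb from Cep83os, rose by 0.29 (SE 0.0618, limma adjusted p = 0.0148). With the animal number range as a covariate, 0 of the 52 passed in limma.

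**Figure D4:**
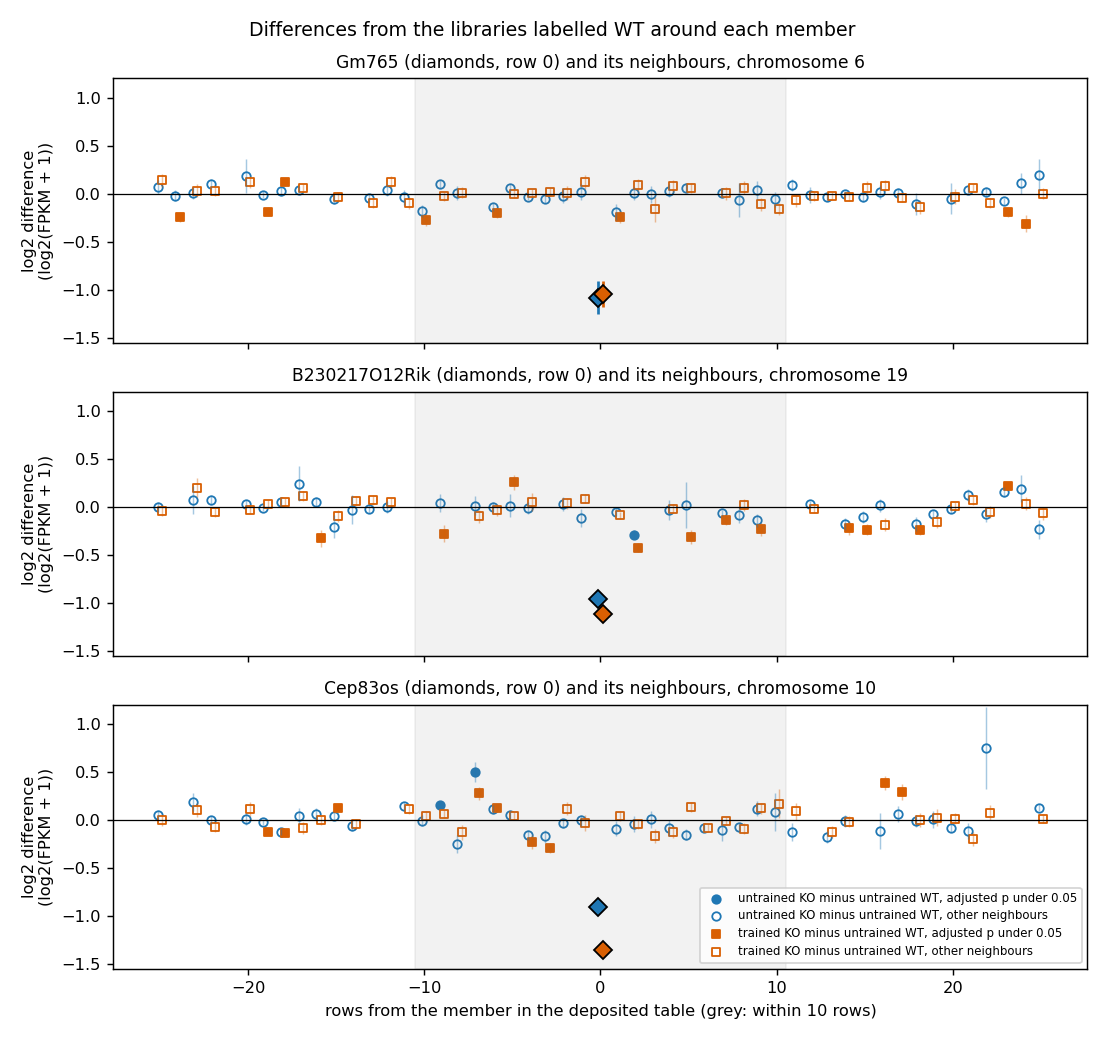
Fitted difference from the libraries labelled WT on the log2(FPKM + 1) scale, with SE bars, against the row offset from each gene in the table, with the gene itself as diamonds at 0, untrained libraries labelled KO in blue circles and trained ones in orange squares, filled where the limma adjusted p is under 0.05. In grey are the 10 rows on each side, where the lowest neighbour is Trub1 at -0.29 and -0.43. The diamonds lie at -0.90 or lower, as these genes were selected for such differences.

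Other proteins of the distal appendages were followed as the set to which Cep83 belongs. All 9 genes of the list (Cep83, Cep89, Sclt1, Fbf1, Cep164, Ttbk2, Ankrd26, Lrrc45 and Inpp5e) were tested. Between the untrained arms 0 passed in limma, 1 (Lrrc45, -0.19) had an unadjusted p under 0.05, and 0 passed with limma-voom. Of all 12572 tested genes, 1600 had an unadjusted p under 0.05 in this comparison. The median difference of the 9 genes was -0.03. Between trained libraries and WT, Cep164, which recruits the cilium-building kinase Ttbk2, fell by 0.26 (SE 0.0539, limma adjusted p = 0.00241) and the median was 0.02. For training 0 passed in limma, 2 had an unadjusted p under 0.05, and 0 passed with limma-voom. Of all 12572 tested genes, 2989 had an unadjusted p under 0.05 for training. By sex 6 of 9 passed, 2 higher and 4 lower in males, where 28.6% of all tested genes passed. Among these, Ttbk2 was lower in males by the fitted -0.31 (SE 0.0511, limma adjusted p = 0.000420). After correction for GC content and length, 1 of the 9 passed by sex, where 4.24% of tested genes did. This was Ttbk2, at -0.20 (SE 0.0345, limma adjusted p = 0.00180).

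Across the 24 libraries, the 3 genes whose log2(FPKM + 1) followed each of these 3 genes most closely were listed. For Gm765 they were Pkmyt1 on chromosome 17 (Pearson r = 0.87) and Lrrc4c and Pcna on chromosome 2 (both r = 0.86). For B230217O12Rik they were Rnps1 on chromosome 17 (r = 0.94), Cep83os (r = 0.92) and Mcm8 on chromosome 2 (r = 0.92). For Cep83os they were Mcm8 (r = 0.94), Rnps1 (r = 0.93) and B230217O12Rik (r = 0.92). These r values are over libraries that share the step between arms, and they carry no test. The 3 genes were selected for that step, so other genes with a strong step rank high. Between the untrained arms, 4.39% of tested genes on chromosome 2 and 8.62% on chromosome 17 passed, against 0.757% off these chromosomes. Nothing is therefore read from the chromosomes of the listed genes or from the r between members. Within arm and sex, on residuals from the 6 group means, the r between members was -0.15 for Gm765 and B230217O12Rik, 0.29 for Gm765 and Cep83os and 0.39 for B230217O12Rik and Cep83os. The closest genes on these residuals were Cited4, Stard10 and Fbxw8 for Gm765 (r = 0.83, 0.82 and 0.81). For B230217O12Rik they were Cox7a2l, Unk and Cwc15 (r = 0.72, 0.71 and 0.70), and for Cep83os they were Tsn, Ufd1l and Gm10509 (r = 0.78, 0.75 and 0.74). None of the genes closest by level was closest on residuals.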

How the data were processed

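The authors deposited 1 table of FPKM for 15232 genes in 24 libraries. Per the labels' protocols, libraries were made with a stranded mRNA kit. The submitters' processing notes name FastQC 0.11.7, Trimmomatic 0.38, STAR 2.5.3a, featureCounts of Subread 1.6.3 and mm10. The annotation, strand setting and FPKM program are not given in the sources used here.

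Whole reads were recovered from the steps of the FPKM: 99.9866% of values came out whole within 0.01 read, with scale set by RefSeq single-exon genes. Depth was 12343773 to 27233267 reads. These reads give the counting errors, which cover counting only.

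Models were fitted in limma 3.58.1 (R 4.3.3, eBayes with trend) to log2(FPKM + 1) of 12572 genes with a mean of at least 1 FPKM, using only the arms compared, with sex as covariate. P-values were adjusted by Benjamini-Hochberg, and 0.05 was the threshold. Sex was fitted over 24 libraries with arm as covariate. Intervals of 95% use the SE and the residual degrees of freedom. Other steps ran in Python 3.11.15 with pandas 2.3.3, numpy 2.4.6 and scipy 1.17.1.

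The genes and lists were chosen with earlier results of these data known. Named genes are the 3 genes, Thbs1, Thbs2, flanking and overlapping rows, neighbours called against WT, called distal appendage genes and the 3 genes of highest correlation. Mrpl42, the largest distal appendage sex difference and Lrrc45 were added after their values were seen. The titles' replicate numbers refer to different animals. Deviations of same-numbered libraries correlated at 0.02 on average between the untrained arms, so no pairing was used. Alternatives were other pseudocounts, filters, scalings, fits, thresholds and windows, the replicate block, limma-voom on recovered reads and each library left out. Correction for GC content and length (GC held for 96.39% of tested genes) and the 2 fits by animal number were added after seeing the data. Symbols of 14563 genes matched RefSeq GRCm38.p6. One neighbour that the rule gives is not reported here.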

Additional observations from a re-analysis of the deposited data

Results flagged for a closer look

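Among the 3 genes, the rows that flank them, Trub1, Thbs1 and Thbs2, 36 groups of 8 libraries were examined for a library far from the others, which chance flags in about 1 in 20 groups. Both flags fell on male untrained library 3 labelled KO, the library with the septal markers. Ablim1 was at 13.7 FPKM there, against a mean of 21.9 ± 3.50 FPKM (SD, n = 8) in its arm. Fam160b1 was at 7.13 FPKM there, against 8.42 ± 0.591 FPKM (SD, n = 8). The part of tissue makeup in these values was not tested. None of the 3 genes themselves was flagged in any arm.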

How the results depend on the processing

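The genotype differences of the 3 genes kept their direction under every alternative run, including each library left out. With a pseudocount of 0.1 the untrained and trained differences from WT were -1.84 and -1.67 for Gm765, -1.24 and -1.49 for B230217O12Rik, and -1.54 (trained) for Cep83os. With limma-voom on recovered reads they were -2.08 and -1.72, -1.26 and -1.52, and -1.57, larger because no 1 FPKM is added.

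The fall of Cep83os with training lost its call with animal number as a covariate (-0.35), among males with numbers over 1000 (-0.31) and with the replicate block (-0.42, limma adjusted p = 0.0829). Same-numbered libraries did not deviate together (mean correlations 0.02, -0.10 and -0.07 for the 3 pairs of arms), so the block pairs nothing. A trained female has no replicate number in its title, so block fits with the trained arm used 14 libraries instead of 16. In those fits, the block and the smaller number of libraries cannot be told apart. The differences with training that passed no test reversed: Gm765 to -0.020 after GC and length correction and to -0.25 under both animal-number fits, and B230217O12Rik to 0.093 with the covariate and 0.14 among those males. GC and length correction moved the sex difference of B230217O12Rik to 0.16 and that of Cep83os to 0.078. The interaction of Gm765 turned to -0.61 with limma-voom and -0.16 with a pseudocount of 0.1, and that of Cep83os to -0.0081 with limma-voom. Leaving out single libraries gave Gm765 -0.051 to 0.096 for training and -0.16 to 0.27 for the interaction, and Cep83os -0.054 to 0.079 for the interaction.

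Genes called between the untrained arms numbered 98 without the sex covariate and 114 with the replicate block, against 179, and 115 (without female 3 labelled WT) to 340 (without male untrained 3 labelled KO) with single libraries left out. Trained against WT, 3074 became 1614 with the block. For training, 713 became 1238 with all 24 libraries in one fit, 0 with the animal-number covariate, 0 among males over 1000, 422 without the sex covariate, 29 with the block and 1445 at a threshold of 0.1, and 330 (without female untrained 1 labelled KO) to 945 with single libraries left out. For sex, 3595 became 514 after GC and length correction.

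Neighbours called between the untrained arms (3) became 1 at a mean of at least 5 FPKM, 1 without the sex covariate and 1 within 5 rows, and 2 to 5 with single libraries left out, the 5 without male untrained 3 labelled KO. Trained against WT (13), they became 8 at a mean of at least 5 FPKM, 5 with the block, 6 within 5 rows and 28 within 25 rows. For training (2), they became 0 under each animal-number fit and with the block, 1 at a mean of at least 5 FPKM, 1 within 5 rows, 4 with no filter and 7 within 25 rows, and 1 to 3 with single libraries left out. Lta4h lost its call without the sex covariate (limma adjusted p = 0.207) and with the block (limma adjusted p = 0.0588), and Ntn4 without the sex covariate (limma adjusted p = 0.0567). Distal appendage genes called in trained against WT (1) were 2 after GC and length correction, 2 with equal FPKM sums, 0 at a mean of at least 5 FPKM and 1 to 2 with single libraries left out. For training (0) there was 1 with all 24 libraries in one fit. Apart from alternatives that change the number of genes, rows or libraries, the cause was not tested. The low read counts of Gm765 limit what can be seen of its training and sex differences.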
